A study of Mus musculus with 12 samples.

Results

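The genes of the cytosolic ribosomal proteins were examined in chromatin accessibility data from mouse hepatocytes. All rows of the deposited peak table whose nearest gene has a symbol of the form Rpl or Rps with a number (with or without a final a, x or l), or is Rplp0, Rplp1, Rplp2 or Rpsa, were taken, which gave 162 of 52530 peaks at 74 genes, 45 of the large and 29 of the small subunit. Of these peaks, 91 had their centre within 1 kb of the annotated start of their gene (start peaks, at 70 genes) and 71 lay farther away, at 29 genes. A peak counts for its nearest gene, which need not be the gene it acts on.

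The study used ATAC-seq, where transposase inserts adapters into open chromatin, on nuclei that were pulled from the liver of female HEP-INTACT mice on beads. INTACT marks the nuclei of one cell type with a genetic tag, here those of hepatocytes, and all groups carry that tag. The promoter that drives it and the age of the mice are not stated in the labels. Livers came from 3 mice that had fasted for 16 h from ZT12, when mice become active, and from 3 mice fed ad libitum and sacrificed at the same time point. A fresh and a frozen portion of each liver was processed, which gave 12 libraries: 3 fasted frozen, 3 fed frozen, 3 fasted fresh and 3 fed fresh. The columns of the table name the libraries of a group by the letters A to C. In bulk material, fewer nuclei of a type and less openness per nucleus cannot be told apart.

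A ribosome is built from a large and a small subunit, each a ribosomal RNA core with many small proteins that are needed in nearly equal amounts. Ribosomal protein genes are expressed strongly in most cells, and their messenger RNAs begin with a C and a run of pyrimidines, the TOP element, through which the mTORC1 kinase controls their translation when nutrients are plentiful. In the fasted liver mTORC1 activity and ribosome content are known to fall. These controls act largely after transcription, while ATAC-seq reads the openness of the promoter.

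RefSeq promoter windows on GRCm38.p6 (the assembly called mm10), which run from 250 bases before to 50 bases after an annotated start, lay within 1 kb of the start peak for 50 of the 70 genes (Rpl3 and Rpl30 are not among the 50). They are set beside the windows of the 8573 genes of any kind that have a start peak. A C followed by at least 4 pyrimidines, beginning within 2 bases of the annotated start, was present in 15 of the 50 ribosomal protein promoters (30.0%), against 9.88% of the 8573 genes. A C followed by at least 5 pyrimidines and beginning in the first 50 bases was present in 39 of 50 (78.0%), against 29.4%. CCGGAAG, the core bound by ETS factors such as GABP, was found on either strand in 19 of 50 (38.0%), against 19.6%, and AAGATGG, part of the YY1 site, in 6 of 50 (12.0%), against 7.49%. GGGCGG, the core of an SP1 site, was found in 30 of 50 (60.0%), against 68.5%, the E-box CACGTG in 5 of 50 (10%), against 11.0%, and GCGCATGC, the NRF1 core, in 2 of 50 (4%), against 6.11%. TATAAA in the 50 bases before the start was found in 0 of 50, against 1.38%. Over all 32851 windows of the RefSeq table, CCGGAAG was in 8.86%, AAGATGG in 6.34%, GGGCGG in 35.7%, CACGTG in 7.15%, GCGCATGC in 2.71%, TATAAA in 2.63%, the run at the start in 8.96% and the longer run in 33.3%. Overlapping matches of different kinds were each counted.

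Promoters are printed for 3 genes whose start peak was far higher in frozen liver (Rps12, Rpl9 and Rpl18), for 2 whose start peak was lower there (Rpl31 and Rpl35), for Rps6, whose protein is phosphorylated by the kinases below mTORC1, and for Rplp2 of the ribosomal stalk. Each runs 5′ to 3′ from 100 bases before the annotated start to 30 bases from it on. Capitals mark matches to the motifs above and pyrimidine runs of both kinds, which can overlap. In order, the sequences lie at chr10:23787180-23787309 (minus strand), chr5:65391402-65391531 (minus strand), chr7:45717971-45718100 (plus strand), chr1:39367751-39367880 (plus strand), chr2:39005102-39005231 (minus strand), chr4:86857338-86857467 (minus strand) and chr7:141447551-141447680 (plus strand), from RefSeq on GRCm38.p6.
Rps12: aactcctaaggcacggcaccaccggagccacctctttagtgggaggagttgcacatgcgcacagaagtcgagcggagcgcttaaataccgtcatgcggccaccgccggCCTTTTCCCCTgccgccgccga
Rpl9: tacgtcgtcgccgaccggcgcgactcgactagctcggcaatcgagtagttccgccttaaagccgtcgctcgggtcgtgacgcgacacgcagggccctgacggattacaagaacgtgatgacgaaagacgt
Rpl18: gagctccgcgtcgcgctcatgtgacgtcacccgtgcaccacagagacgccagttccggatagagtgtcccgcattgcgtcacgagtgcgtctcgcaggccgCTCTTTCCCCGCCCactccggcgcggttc
Rpl31: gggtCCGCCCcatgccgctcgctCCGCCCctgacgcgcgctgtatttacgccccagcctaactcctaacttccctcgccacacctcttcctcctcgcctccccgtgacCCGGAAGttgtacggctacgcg
Rpl35: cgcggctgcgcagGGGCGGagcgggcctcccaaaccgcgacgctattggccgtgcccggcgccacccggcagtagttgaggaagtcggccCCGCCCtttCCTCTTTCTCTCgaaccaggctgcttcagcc
Rps6: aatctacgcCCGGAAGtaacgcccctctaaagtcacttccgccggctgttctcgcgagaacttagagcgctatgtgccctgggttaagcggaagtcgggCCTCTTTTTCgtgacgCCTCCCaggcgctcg
Rplp2: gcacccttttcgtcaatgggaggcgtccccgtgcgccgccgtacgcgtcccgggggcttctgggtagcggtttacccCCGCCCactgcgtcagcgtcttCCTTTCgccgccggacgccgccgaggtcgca

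The printed promoters differ in what they hold. Rps6 and Rpl35 have a long pyrimidine run at the annotated start, Rplp2 a shorter one, and in Rpl18 the run passes into an SP1 core. Rps12 has its run some bases downstream of the start, and Rpl31 has 2 SP1 cores before its start and an ETS core after it. In the printed stretch of Rpl9 none of the searched motifs was found. The letters say nothing of which factor binds.

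The values of a library are multiples of 1 step, and if that step is 1 read, which no source states, the 12 libraries held 3692152 to 14506057 reads in peaks. On the same reading, the median start peak of a ribosomal protein gene had 107 to 298 reads in a library, a counting error of 9.67% to 5.79%, which covers counting only, since PCR copies are not independent molecules. Values below are normalized reads per 200 bp peak, as deposited by the authors. Log2 differences are of log2(normalized reads + 1) from limma, given with the standard error (SE), and they understate changes of low peaks. A peak is called where the two-sided p, adjusted over all 52530 peaks by the Benjamini-Hochberg method, is under 0.05. Peaks of hepatocyte markers (Alb, Apoa1, Ttr, Hnf4a and Cps1, 5 of 5 genes with peaks, 58 peaks) summed to 7411 to 10265 normalized reads in a library, and those of endothelial markers (Stab2, Lyve1, Pecam1 and Kdr, 4 of 4 genes, 11 peaks) to 1026 to 1241. Such sums grow with the number of peaks, so their ratio does not measure the purity of the nuclei. Adgre1 of 3 macrophage markers, Reln of 3 stellate cell markers, Epcam and Sox9 of 3 bile duct markers and Ptprc of 3 lymphocyte markers also had peaks, with no row for the others. These were 1 macrophage, 3 stellate, 2 bile duct and 1 lymphocyte marker peaks, so that these types rest on very few peaks.

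Averaged over all libraries, the start peaks of ribosomal protein genes were of ordinary height. With 1 start peak per gene, the one nearest to the start, the median over the 70 genes was 199 normalized reads, against 195 over 11082 genes of all kinds. Counting every start peak, the median in fresh libraries was 147 to 176 for ribosomal protein genes, against 151 to 169 for all genes. In frozen libraries it was 201 to 243, against 156 to 177. The highest start peak, 179 bases before the start of Rps21, averaged 561 normalized reads, and those of Rps19 (495) and Rpl31 (458) were also high. The lowest were a peak in intron 1 of Rps9 (61.9), a second peak of Rpl30 (63.9) and a peak of Rps27l (64.6), a paralogue of Rps27 that p53 induces in human cells.

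The first comparison asked how hepatocyte chromatin at these genes differs between fasted and fed mice, with fresh and frozen values averaged per letter (3 against 3). Libraries of the same letter and feeding state were treated as one mouse because they deviated together, and not from a label. Ribosomal protein start peaks stood slightly higher in fasted livers, by about as much as gene starts in general. Of the 91 start peaks, 25 were higher and 1 was lower in fasted livers by limma. Among all 18534 start peaks 19.7% were called higher and 4.67% lower, and the median log2 difference was 0.14 for ribosomal protein genes and 0.12 for all start peaks. After scaling each library to a common start peak median, which lowers the median of all start peaks to -0.01, 2 were higher and 1 was lower, and the median of the ribosomal protein start peaks was 0.02. The count also changed when the libraries of single mice were left out, which leaves fewer mice to test. It was 4 without fasted mouse A, 5 without fed mouse B and 9 without fed mouse A. It was 15 without fasted mouse C, 16 without fed mouse C and 21 without fasted mouse B. The median stayed at 0.14 to 0.18, against 0.11 to 0.14 over all start peaks. The shares of all start peaks called with the scaling or without single mice were not computed. The 25 called differences lay between 0.19 and 0.52, with large ones at peaks 175 bases before the start of Rpl26 and 292 before that of Rpl30, which are second peaks of their genes and were picked after their values were seen. Bile duct marker peaks summed to 157 to 196 normalized reads in fasted fresh and 123 to 131 in fed fresh libraries, and endothelial marker peaks to 1142 to 1241 in fasted frozen and 1053 to 1134 in fed frozen libraries, without overlap in either case. In the other preparation both overlapped (bile duct 194 to 232 in fasted frozen and 198 to 225 in fed frozen, endothelial 1026 to 1112 in fasted fresh and 1067 to 1164 in fed fresh). Hepatocyte, macrophage, stellate and lymphocyte marker sums overlapped between fasted and fed libraries in both preparations. Hepatocyte marker peaks summed to 8861 to 10265 in fasted frozen and 8255 to 9321 in fed frozen libraries, and to 7434 to 8280 in fasted fresh and 7411 to 8057 in fed fresh libraries. The single macrophage marker peak had 40.1 to 61.0 in fasted frozen and 58.4 to 70.1 in fed frozen libraries, and 61.3 to 66.5 in fasted fresh and 63.9 to 81.0 in fed fresh libraries. Stellate marker peaks summed to 187 to 285 in fasted frozen and 273 to 363 in fed frozen libraries, and to 208 to 289 in fasted fresh and 236 to 326 in fed fresh libraries. The single lymphocyte marker peak had 137 to 232 in fasted frozen and 121 to 157 in fed frozen libraries, and 136 to 232 in fasted fresh and 143 to 162 in fed fresh libraries. The part of these markers in the fasting difference was not tested. Large subunit genes had 17 higher of 56 start peaks and small subunit genes 8 higher and 1 lower of 35.

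The largest fasting differences of the peaks nearest to the start were those of Rpl6, Rpl9, Rpl39, Rplp2, Rpl5 and Rps9, between 0.30 and 0.32 on the log2 scale, each less than 1.5-fold. Rps9, a protein of the small subunit body, had 196, 203 and 198 normalized reads in fasted mice A to C, against 162, 162 and 162 in fed mice (chr7:3703863-3704063, 78 bases before the start). The fasted mice all lay above the fed mice, with a log2 difference of 0.30 ± 0.07 (adjusted p = 0.00795 by limma). Rpl5, which with Rpl11 and the smallest ribosomal RNA forms a particle that restrains the p53 inhibitor MDM2, had 170.4, 161 and 167 reads in fasted mice and 132, 136 and 137 in fed mice (chr5:107900441-107900641). Its difference was 0.30 ± 0.08 (adjusted p = 0.0133 by limma), with no overlap between the mice.

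Rpl6 had 191, 153 and 189 normalized reads in fasted mice, against 149, 130.1 and 144 in fed mice (chr5:121204365-121204565), a log2 difference of 0.32 ± 0.10 (adjusted p = 0.035 by limma). Rpl9 had 133, 133 and 130.2 reads in fasted mice and 101, 99.7 and 115 in fed mice (chr5:65391307-65391507), and differed by 0.32 ± 0.09 (adjusted p = 0.0242 by limma). Fasted mice lay above fed mice at both. Rpl39, whose protein lines the tunnel through which the new peptide leaves, had 108, 106 and 117 reads in fasted mice and 90.5, 79.3 and 95.9 in fed mice (chrX:37085137-37085337), and barely passed (log2 difference 0.32 ± 0.11, adjusted p = 0.0482 by limma). Rplp2, a protein of the stalk that recruits the translation factors, had 178, 164 and 161 reads in fasted mice and 157, 115 and 136 in fed mice, and missed the threshold (0.31 ± 0.11, adjusted p = 0.0581 in limma). All 5 called peaks named here lost the call under the scaling to the start peak median, with log2 differences of 0.17 to 0.20. Rps9 kept its call without any 1 mouse. Rpl5 lost it without fasted mouse A (0.28), Rpl9 without fed mouse A or B or fasted mouse A or B (0.29 to 0.32), Rpl6 without any mouse but fasted mouse B (0.27 to 0.37), and Rpl39 without any mouse but fed mouse C (0.24 to 0.34).

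At the other end stood Rps27l (log2 difference -0.08 ± 0.16), Rpl35a (-0.07 ± 0.09), Rpl10 (0.00 ± 0.10), Rpl18 (0.04 ± 0.08), Rpl28 (0.04 ± 0.07) and Rpl41 (0.04 ± 0.06), which encodes the shortest protein of the ribosome. None of them was called, and their adjusted p ranged from 0.576 to 0.982 by limma. At Rpl10, a protein that joins the large subunit late, fasted mice had 157, 155 and 132 normalized reads and fed mice 135, 157 and 150.3, so that the groups overlapped.

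Among the genes fixed for their place in the stalk or their links to other pathways, the peak nearest to the start was called for fasting at Rpl5 alone. Other peaks of these genes were called: 1 of the 3 start peaks of Rps27l was higher, 108 bases before its start (0.20 ± 0.07), and beyond 1 kb 3 peaks were lower at Rpl11, 1 was higher at Rpl5, 1 higher and 1 lower at Rplp1, 1 lower at Rps6 and 1 higher at Rps27a. Rps6, the target of the S6 kinases, had 301, 291 and 309 normalized reads in fasted mice and 288, 292 and 287 in fed mice, a log2 difference of 0.05 ± 0.06 (adjusted p = 0.476 by limma, chr4:86857310-86857510). The other stalk genes gave 0.06 ± 0.07 for Rplp0 and 0.16 ± 0.09 for Rplp1. Rpl11, the partner of Rpl5, gave 0.11 ± 0.08, and Rpl13a, known also for silencing of inflammatory messenger RNAs, 0.11 ± 0.07. Rpsa, which doubles as a laminin receptor, gave 0.14 ± 0.07, Rps3, which lies where the messenger RNA enters and also acts in DNA repair, 0.12 ± 0.07, and Rps27a, made as a fusion with ubiquitin, 0.07 ± 0.08. Scaled to the start peak median, the differences of Rps6, Rplp0, Rpl11, Rpl13a, Rps3 and Rps27a lay between -0.07 and -0.01, so that their sign depends on the scale.

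The 1 start peak that was lower in fasted livers lies in intron 1 of Rps9, 586 bases after its start (chr7:3704527-3704727), while the Rps9 promoter peak was higher. Fasted frozen libraries had 54.6, 54.9 and 44.5 normalized reads there, against 78.6, 79.6 and 99.0 in fed frozen libraries. Fasted fresh libraries had 51.6, 43.1 and 44.1 and fed fresh libraries 60.3, 61.1 and 71.0. All 6 fasted libraries lay below all 6 fed libraries, and the log2 difference was -0.61 ± 0.15 (adjusted p = 0.0112 by limma). Libraries of the 2 feeding states were fully apart at this start peak alone, or 1 of 91, against 6.73% of all start peaks.

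**Figure D1:**
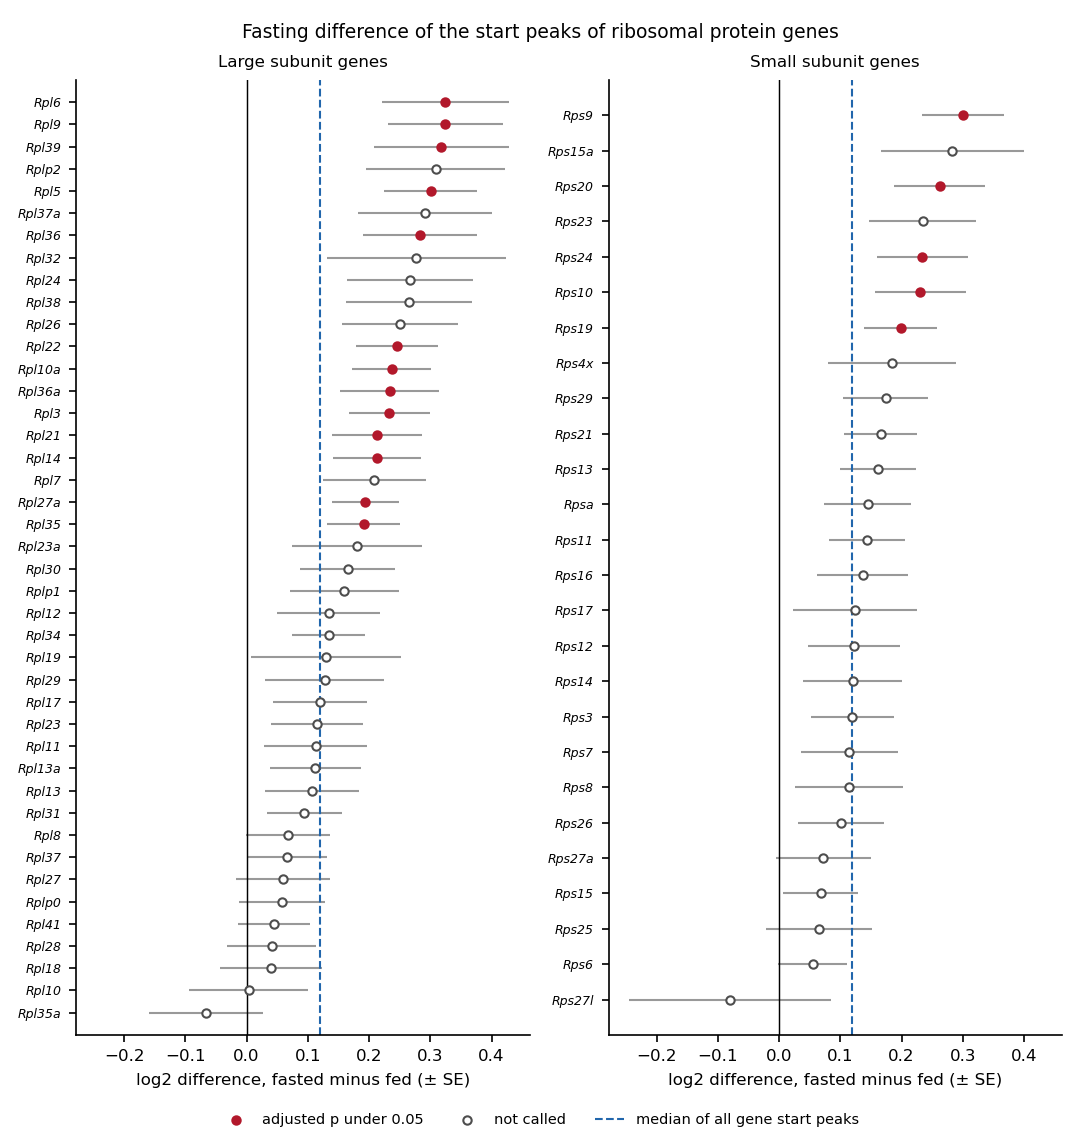
The log2 difference between fasted and fed mice is plotted for the start peak nearest to each of 68 ribosomal protein gene starts (x axis, points with SE), with large subunit genes at left and small subunit genes at right, called peaks filled and the median of all gene start peaks dashed. Most points lie near the dashed line at 0.12, and 18 of 68 are called.

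Within fresh liver 6 of 91 start peaks were higher in fasted mice and 0 were lower by limma, against 13.2% and 3.45% of all start peaks (at unadjusted p under 0.05, 23 of the 91, or 25.3%, differed in either direction, against 30.0% of all start peaks). Within frozen liver 13 were higher and 1 was lower, against 12.8% and 3.70%. Rpl3, near the site where peptide bonds form, had 149, 143 and 140.1 normalized reads in fasted fresh libraries, against 101, 79.7 and 116 in fed fresh libraries, with a log2 difference of 0.55 ± 0.13 (adjusted p = 0.0102 by limma). In frozen liver it had 293, 290.3 and 320.4 reads in fasted and 274, 291 and 272 in fed libraries, a difference of 0.11 ± 0.09 (adjusted p = 0.36 by limma). Rpl22, needed for T cell development in mice, differed by 0.35 ± 0.08 in fresh liver (adjusted p = 0.00681 by limma) and by 0.16 ± 0.09 in frozen liver, where it was not called. Among the peaks nearest to a start, next in size in fresh liver were Rpl36 (0.35 ± 0.13) and Rpl9 (0.33 ± 0.15), which were not called. The largest fresh difference of all 91 start peaks was at the second peak of Rpl30, 292 bases before its start (0.67 ± 0.16, adjusted p = 0.0105 by limma). At the low end of the peaks nearest to a start in fresh liver, Rpl10 gave -0.26 ± 0.13, Rpl18 -0.22 ± 0.13, Rpl31 -0.03 ± 0.08 and Rpl27 -0.02 ± 0.09, none of them called.

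In frozen liver the largest differences of the peaks nearest to a start were those of Rpl39 (0.58 ± 0.16, adjusted p = 0.0204 by limma), Rplp2 (0.42 ± 0.17, not called), Rps9 (0.39 ± 0.09, adjusted p = 0.00737 by limma) and Rpl38 (0.38 ± 0.12, adjusted p = 0.0304 by limma), a gene needed for the translation of Hox messenger RNAs in mouse embryos. The lowest of these peaks were those of Rps27l (-0.22 ± 0.19), Rpl35a (-0.12 ± 0.13), Rplp0 (0.01 ± 0.09) and Rps14 (0.02 ± 0.12), none of them called. Of the start peaks, 2 were called in both preparations, in the same direction, at Rpl37 and Rps20 (named after their values were seen). How many start peaks of all genes were called in both preparations was not computed. The count in frozen liver fell to 3 higher without the library of fasted mouse A and 4 without fed mouse B. It was 7 without fed mouse A, 8 without fed mouse C and 16 without fasted mouse B. In fresh liver it was 3 without fasted or fed mouse A, and 10 without fasted mouse B. The difference itself was tested by an interaction term, which called 0 of 162 ribosomal protein peaks by limma (0% of all peaks were called), with 8 at unadjusted p under 0.05 (4.94%, against 5.14% of all peaks). That fit did not pair the libraries of a mouse. With libraries of the same letter paired, limma again called 0 of 162, but 395 of all 52530 peaks. Then 22 of the 162 had unadjusted p under 0.05 (13.6%, against 13.1% of all peaks). In the authors' deposited table, 4 start peaks were higher and 0 lower in fresh liver, and 16 were higher and 1 was lower in frozen liver, at their adjusted p under 0.05. The same columns of the authors' deposited table called 9.58% of all start peaks higher and 2.87% lower in fresh liver, and 13.3% higher and 4.04% lower in frozen liver.

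The second comparison set frozen liver against fresh liver, 6 libraries each, with feeding state as a covariate. Libraries of the same mouse were not paired in this fit. Most ribosomal protein start peaks were higher in frozen liver, and a few at large subunit genes were lower. Of the 91 start peaks, 63 were higher and 6 lower in frozen liver by limma, against 37.6% and 27.7% of all start peaks. The median log2 difference was 0.35 for ribosomal protein start peaks and 0.06 for all start peaks. Both subunits shared it, with 39 higher and 6 lower of 56 start peaks at large subunit genes (median 0.37) and 24 higher and 0 lower of 35 at small subunit genes (median 0.28). At the 6 start peaks of the 4 genes on chromosome X, 1 was higher and 1 lower. The 12 libraries separated fully by preparation at 42 of 91 start peaks, 40 with frozen liver higher and 2 with it lower, against 36.2% of all start peaks (22.4% higher and 13.8% lower). Scaled to the start peak median, 53 were higher and 8 were lower (median 0.27), and without any 1 mouse 56 to 62 were higher. Without single mice the median was 0.32 to 0.36, against 0.05 to 0.06 over all start peaks. The shares of all start peaks called under these settings were not computed.

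In each library, the 91 start peaks took 0.280% to 0.296% of the reads in all peaks in fasted frozen liver, 0.258% to 0.264% in fed frozen liver, 0.229% to 0.238% in fasted fresh liver and 0.212% to 0.218% in fed fresh liver. As a share of reads in all gene start peaks they took 0.578% to 0.609% in fasted frozen, 0.558% to 0.565% in fed frozen, 0.487% to 0.496% in fasted fresh and 0.477% to 0.490% in fed fresh liver. All 6 frozen libraries lay above all 6 fresh libraries on both scales. On the first scale fasted libraries also lay above the fed libraries of the same preparation, while on the second the fasted and fed ranges overlapped in fresh liver.

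**Figure D2:**
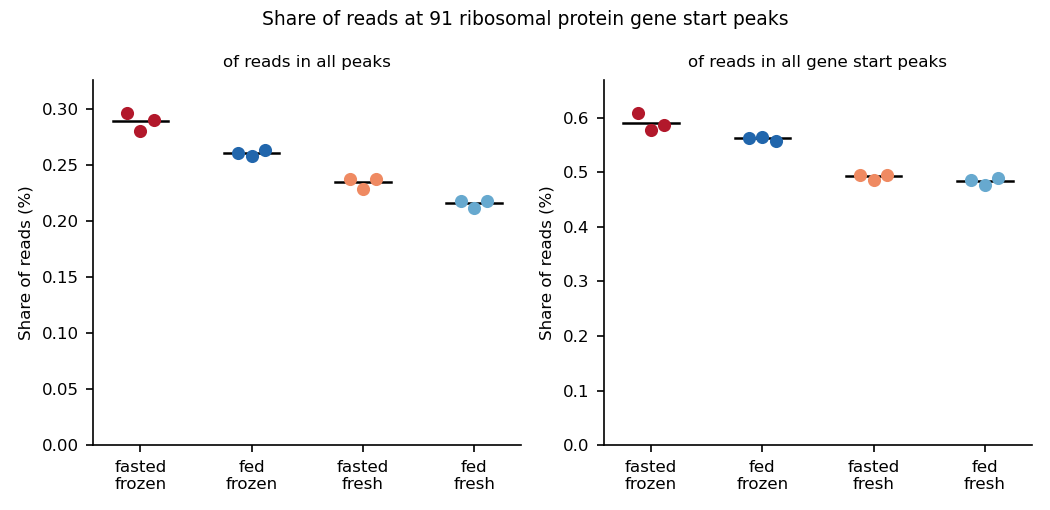
The share of reads that fell in the 91 start peaks of ribosomal protein genes is plotted for each library (points, y axis in %, bars at the group means), of reads in all peaks at left and of reads in all gene start peaks at right. The frozen libraries lie between 0.258% and 0.296% at left and the fresh libraries between 0.212% and 0.238%.

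The 4 largest freezing differences, at Rps12, Rpl9, Rpl3 and Rpl18, were all above 2-fold. Rps12, a protein of the small subunit head that monitors ribosomal protein dose in flies, had 369, 377 and 363 normalized reads in fasted frozen and 301, 331 and 368 in fed frozen libraries, against 147, 141 and 145 in fasted fresh and 132, 134 and 150.5 in fed fresh libraries (chr10:23787212-23787412, 103 bases before the start). Every frozen library exceeded every fresh one, and the fitted difference was 2.47-fold, or 1.30 ± 0.06 on the log2 scale (adjusted p = 1.55e-10 by limma). Rpl9 had 187, 191 and 185 normalized reads in fasted frozen and 138, 145 and 166 in fed frozen libraries, against 78.7, 75.3 and 75.7 in fasted fresh and 64.8, 54.4 and 63.7 in fed fresh libraries (chr5:65391307-65391507), which came to 2.43-fold (1.28 ± 0.08, adjusted p = 1.59e-09 by limma). Rpl9 is the gene above in whose printed promoter no searched motif was found.

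Rpl3 had 293, 290.3 and 320.4 normalized reads in fasted frozen and 274, 291 and 272 in fed frozen libraries, against 149, 143 and 140.1 in fasted fresh and 101, 79.7 and 116 in fed fresh libraries (chr15:80083283-80083483), a 2.43-fold difference (1.28 ± 0.09, adjusted p = 8.09e-09 by limma). Rpl18 had 249, 250.2 and 231 normalized reads in fasted frozen and 201, 231 and 229 in fed frozen libraries, against 90.9, 98.7 and 76.8 in fasted fresh and 102, 109 and 97.9 in fed fresh libraries (chr7:45717970-45718170), which came to 2.41-fold (1.27 ± 0.09, adjusted p = 3.62e-09 by limma). The centre of this peak lies 1 base before the Rpl18 start, but the peak is annotated to the promoter of a transcript of Sphk2. At all 4 genes the lowest frozen library lay above the highest fresh one.

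Among the other genes, Rpl5 differed by 0.66 ± 0.07, with 157 to 214 (median 181) normalized reads in frozen and 94.1 to 128 (median 122) in fresh libraries, and Rpsa by 0.58 ± 0.06, with 313 to 412 (median 328) in frozen and 196 to 244 (median 228) in fresh libraries. Rpl41 differed by 0.52 ± 0.05, Rpl38 by 0.51 ± 0.10, Rplp1 by 0.48 ± 0.07, Rpl13a by 0.43 ± 0.06 and Rps6 by 0.27 ± 0.05. At all 7 of these start peaks the 2 preparations did not overlap, and limma called each. Rplp0 gave 0.21 ± 0.06 and Rpl11 0.18 ± 0.07, both called (adjusted p = 0.00461 and 0.0334 by limma) but with overlapping libraries, and both lost the call with libraries scaled to the start peak median or quantile normalized. Rpl11 also lost it without fed mouse A or B, or without fasted mouse A or C. Rps3 (-0.05 ± 0.06) and Rps27a (-0.07 ± 0.07) were not called, and under quantile normalization both were called lower, with log2 differences of -0.16 and -0.19.

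The 6 start peaks lower in frozen liver were all at large subunit genes, among them Rpl31, Rpl35, Rpl30, Rpl32 and Rpl39. Rpl31 had 438, 414 and 463 normalized reads in fasted frozen and 363, 363 and 378 in fed frozen libraries, against 512, 466 and 544 in fasted fresh and 529.8, 536 and 482 in fed fresh libraries (chr1:39367695-39367895), so that all frozen libraries lay below all fresh ones, with a log2 difference of -0.35 ± 0.06 (adjusted p = 7.85e-05 by limma). Rpl35, which like Rpl31 sits by the mouth of the exit tunnel, had 266, 282 and 274 normalized reads in fasted frozen and 237, 210.2 and 266 in fed frozen libraries, against 349, 317 and 341 in fasted fresh and 300.0, 301 and 287 in fed fresh libraries (chr2:39005099-39005299), again without overlap (-0.31 ± 0.06, adjusted p = 0.000212 by limma). Rpl30 had 209 to 324 (median 283) reads in frozen and 323 to 386 (median 349.9) in fresh libraries, which overlapped by 1 library (-0.39 ± 0.08, adjusted p = 0.000509 by limma). The called difference of the peak 305 bases before the start of Rpl39 (-0.19 ± 0.08) was small, and it was not called without any 1 of the fed mice or without fasted mouse B. Rpl36a, also among the lowest of the peaks nearest to a start, gave -0.17 ± 0.08 and was not called.

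**Figure D3:**
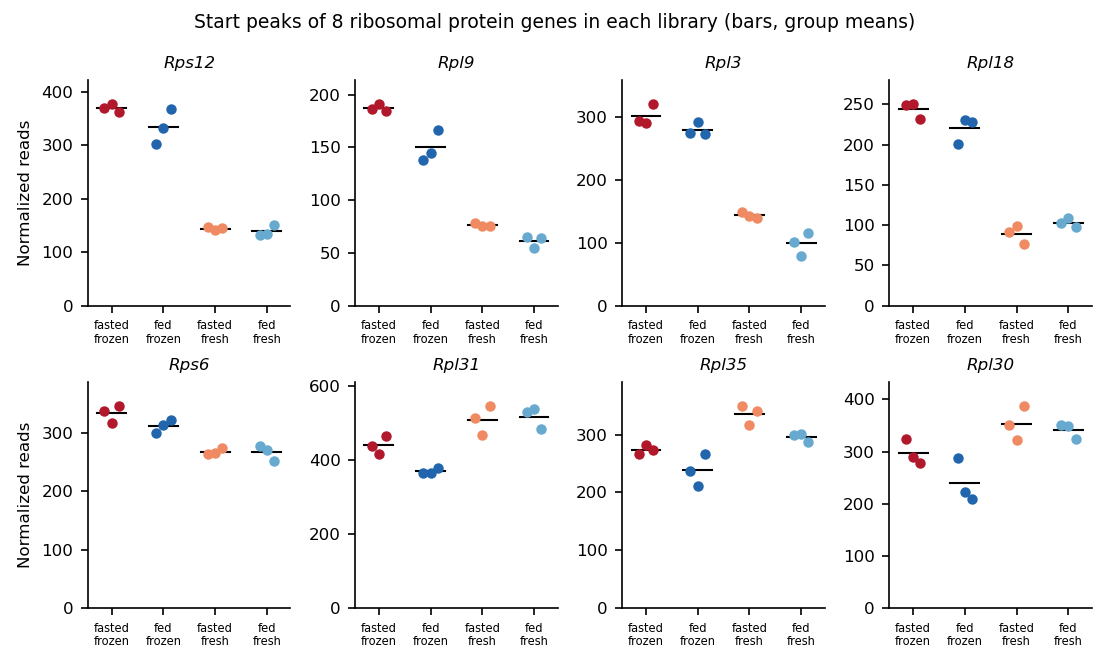
Normalized reads at the start peaks of 8 ribosomal protein genes are plotted for each library (points, y axis from 0, bars at the means of 3 libraries), with frozen groups left of fresh groups. Rps12, Rpl9, Rpl3 and Rpl18 stand 2.41-fold to 2.47-fold apart between the preparations, Rps6 is modestly higher in frozen liver, and Rpl31, Rpl35 and Rpl30 are lower.

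**Figure D4:**
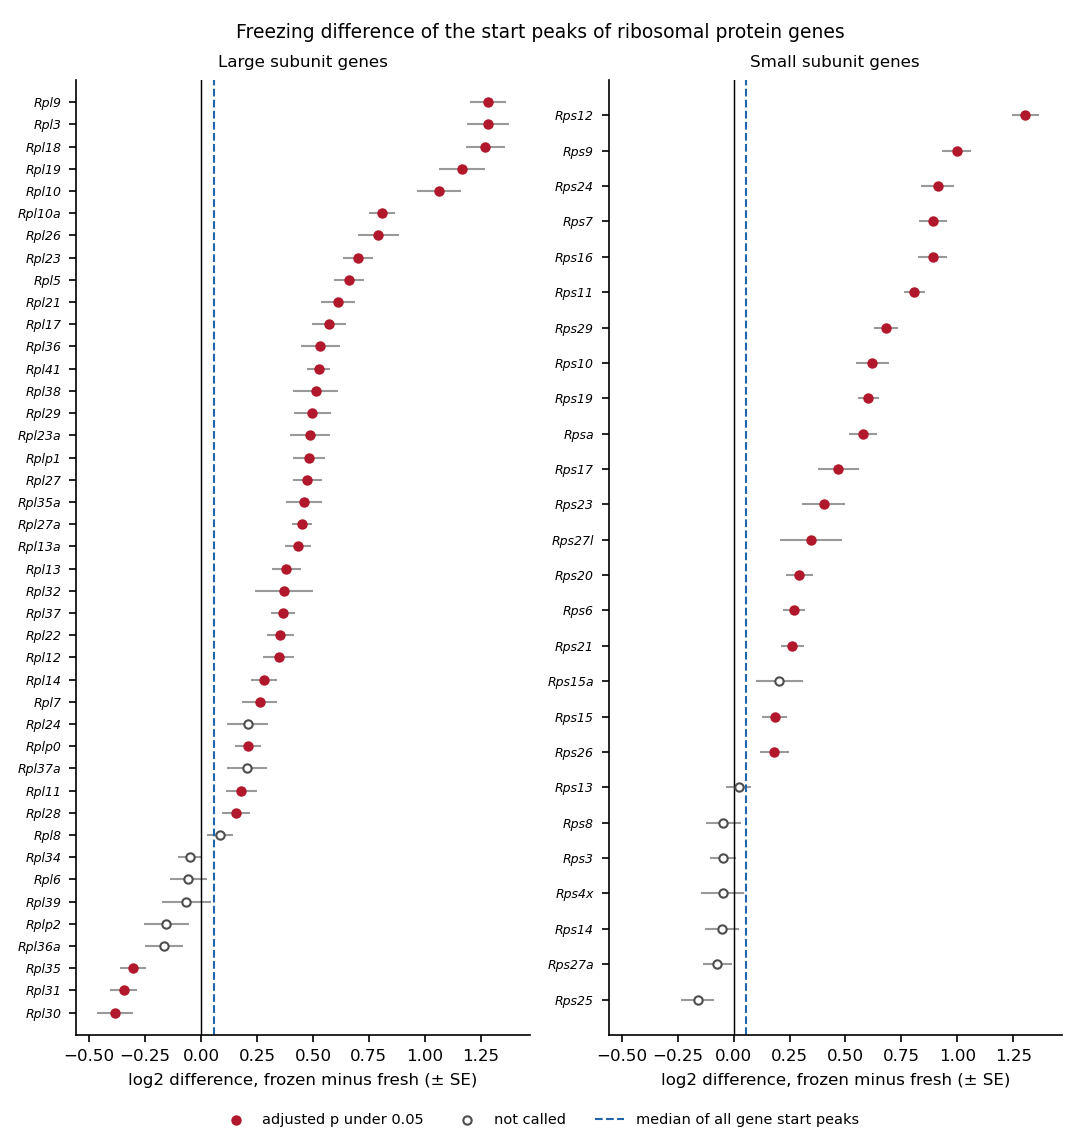
The log2 difference between frozen and fresh liver is plotted for the start peak nearest to each of 68 ribosomal protein gene starts (x axis, points with SE), large subunit at left and small subunit at right, called peaks filled and the median of all gene start peaks dashed. Of the 68, 49 are called higher and 3 lower, and the points run from -0.39 at Rpl30 to 1.30 at Rps12.

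Neighbouring start peaks of one gene did not always move together. Among the 19 genes with several start peaks, all start peaks were called higher in frozen liver at 10, at least 1 was called higher and another not called at 5, 1 gene had peaks called in both directions, 2 had peaks called lower and none higher, and 1 had no call. Other genes with several start peaks were not counted in this way. Of all start peaks, 37.6% were called higher and 27.7% lower. The gene with calls in both directions was Rpl32, where the peak 20 bases before its start differed by 0.37 ± 0.13 (adjusted p = 0.0191 by limma) and the peak 300 bases before it by -0.45 ± 0.12 (adjusted p = 0.00422 by limma). The first of these 2 peaks was among the lowest start peaks, with a mean of 73.0 normalized reads. At Rpl10 the peak 126 bases before the start was higher by 1.06 ± 0.10 (adjusted p = 9.42e-08 by limma), with 168 to 219 (median 203) normalized reads in frozen and 73.5 to 110.4 (median 97.6) in fresh libraries, while the peak 485 bases before it gave 0.00 ± 0.07. Rpl10 and these Rpl32 values were picked after they were seen. Peaks of the same gene overlapped at 6 of the 19 genes and then share reads.

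The freezing differences were also set beside the sequence of the promoters. Over the 50 genes with a matched window, the log2 difference at the start peak and the GC content of the window had a Pearson r of 0.102 and a Spearman rho of 0.0837 across genes, which share libraries and are not independent replicates. The r was 0.184 (rho 0.14) for the number of CpG pairs in the window and -0.433 (rho -0.402) for the level of the peak in fresh liver, which is also a term of the difference. Over 8573 genes of any kind r was 0.202 for GC content and 0.241 for CpG pairs (rho 0.204 and 0.252). The GC content had a median of 58.2% in these windows and 61.7% in those of all genes with a start peak. Genes with the longer pyrimidine run (39) and without it (11) had median differences of 0.38 and 0.35, and genes with and without CCGGAAG 0.27 and 0.38.

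Marker levels also differed between the preparations. Hepatocyte marker peaks summed to 8255 to 10265 normalized reads in frozen and 7411 to 8280 in fresh libraries, with a small overlap. Bile duct marker peaks summed to 194 to 232 in frozen and 123 to 196 in fresh libraries. The single macrophage marker peak had 40.1 to 70.1 in frozen and 61.3 to 81.0 in fresh libraries. Stellate marker peaks summed to 187 to 363 in frozen and 208 to 326 in fresh libraries, and endothelial marker peaks to 1053 to 1241 in frozen and 1026 to 1164 in fresh libraries. The single lymphocyte marker peak had 121 to 232 in frozen and 136 to 232 in fresh libraries. Their part in the freezing difference was not tested. Whether frozen and fresh portions were processed on the same day is not given in the sources used here, and such a difference cannot be told apart from freezing.

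Other genes of translation and ribosome assembly were described from fixed lists. Among factors whose messenger RNAs carry a TOP element (19 of 20 genes with rows), 28 of 33 start peaks were higher and 2 lower in frozen liver by limma, with a median log2 difference of 0.46. These are 84.8% and 6.06%, against 37.6% and 27.7% of all start peaks. The start peaks of lowest p were those of Pabpc1, the poly(A) binding protein (0.90 ± 0.04, adjusted p = 1.82e-10 by limma), of Eif4b, a cofactor of the RNA helicase of initiation (0.86 ± 0.05, adjusted p = 9.44e-10 by limma), and of Eef2, the elongation factor that moves the ribosome along (1.31 ± 0.09, adjusted p = 4.29e-09 by limma). At Eef2 the 6 frozen libraries averaged 152 normalized reads and the 6 fresh libraries 60.7. Fau, which encodes Rps30 as a fusion with a ubiquitin-like protein and is not a member, gave 0.69 ± 0.06 and was called.

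Lists outside the TOP class lay closer to all start peaks. Mitochondrial ribosomal protein genes had 45 higher and 20 lower of 89 start peaks in frozen liver (median 0.15), ribosome biogenesis genes (27 of 30 genes with rows) 16 higher and 11 lower of 40 (median 0.12), and mTORC1 signalling genes (11 of 11) 9 higher and 5 lower of 24 (median 0.12). In this order 50.6%, 40% and 37.5% were higher, against 37.6% of all start peaks. The shares lower were 22.5%, 27.5% and 20.8%, against 27.7%. Gnl3, a nucleolar GTPase, gave 1.23 ± 0.09, Nolc1, a nucleolar chaperone of small ribonucleoproteins, 0.57 ± 0.05, and Nop10, a subunit of the pseudouridine synthase complex, -0.91 ± 0.10. Rps6kb2, one of the S6 kinases, gave 0.75 ± 0.08, Eif4e, the cap binding factor, 0.65 ± 0.08, and Mtor itself -0.65 ± 0.08. All 6 were called by limma, with adjusted p from 4.17e-09 to 3.33e-06. In fasted against fed livers the lists had 10 higher and 2 lower for the TOP factors (median 0.16), 16 and 0 for mitochondrial ribosomal proteins (0.15), 10 and 0 for biogenesis (0.19) and 3 and 0 for mTORC1 signalling (0.11), against a median of 0.12 over all start peaks. These are 30.3%, 18.0%, 25% and 12.5% higher, against 19.7% of all start peaks.

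The 71 peaks beyond 1 kb were called in both directions, more of them lower than higher in fasted livers, with shares near those of all peaks beyond 1 kb. In fasted livers 10 were higher and 20 lower by limma, against 15% and 25.8% of all 33996 peaks beyond 1 kb. Without the 25% of peaks of lowest mean 8 were higher and 12 lower. That filter also removed some ribosomal protein peaks, so these are not counts out of 71. Scaled to the start peak median 5 were higher and 26 lower, and without single mice 5 to 10 were higher and 13 to 21 lower. In frozen liver 15 were higher and 28 lower, against 23.9% and 35.5% of all such peaks. The differences spread more widely than at the starts, as they did among the peaks of all genes. In the fasting comparison 8 of the 71 peaks were called below -1 and 1 above 1 on the log2 scale. Among all 33996 peaks beyond 1 kb 2742 were called below -1 and 687 above 1. Among all 18534 start peaks these were 117 and 102. Fasted and fed libraries were fully apart at 14.1% of the 71 peaks, 2 with fasted livers higher and 8 lower. The share was 16.3% over all peaks beyond 1 kb. Of the 71 peaks, 52 lay more than 10 kb from the start (median 34.1 kb over all 71, at most 363 kb), 39 were intergenic, 28 lay in a transcript of another gene and 4 in a transcript of the named gene.

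The strongest fall was 82.9 kb from the Rpl31 start, in intron 2 of Npas2, a partner of the clock factor BMAL1 (chr1:39284834-39285034). It had 16.4, 11.3 and 4.45 normalized reads in fasted frozen and 27.1, 33.2 and 4.52 in fasted fresh libraries, against 79.8, 105 and 55.2 in fed frozen and 170.4, 153 and 138 in fed fresh libraries. All fasted libraries lay below all fed libraries, and the log2 difference was -3.03 ± 0.47 (adjusted p = 0.0014 by limma). Without fasted mouse C, whose libraries were the lowest, it was -2.34 and still called. At values as low as 4.45 and 4.52, counting error and the 1 added before the logarithm weigh heavily, so the size of this fall is uncertain. On the other side of Rpl31, 40.5 kb from its start and in intron 2 of Tbc1d8 (chr1:39408208-39408408), a peak had 81.9, 68.0 and 100.1 normalized reads in fasted frozen and 84.8, 77.9 and 93.8 in fasted fresh libraries, against 33.4, 19.1 and 43.8 in fed frozen and 29.3, 39.8 and 46.0 in fed fresh libraries, all fasted above all fed, with a difference of 1.25 ± 0.19 (adjusted p = 0.00131 by limma). Of the 8 distal peaks assigned to Rpl31, 1 was higher and 3 were lower in fasted livers, while its start peak, between them, gave 0.09 ± 0.06 and was not called.

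Another group lies between Rpl11 and Id3, which encodes an inhibitor of bHLH factors. Of 5 distal peaks assigned to Rpl11, 3 were lower in fasted livers and 0 higher. The one 38.2 kb upstream of the Rpl11 start, with the Id3 gene 52.3 kb away on its other side, had 40.0, 57.5 and 33.4 normalized reads in fasted frozen and 48.9, 49.9 and 42.9 in fasted fresh libraries, against 114, 132 and 183 in fed frozen and 102, 119 and 125 in fed fresh libraries (chr4:136091432-136091632). It differed by -1.49 ± 0.17 (adjusted p = 0.000347 by limma), and the peaks at 34.1 kb (chr4:136087321-136087521) and 41.7 kb (chr4:136094998-136095198) by -0.85 ± 0.09 and -0.93 ± 0.14. Fasted and fed libraries were apart at all 3 peaks, while the start peak of Rpl11 gave 0.11 ± 0.08.

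The peak of lowest p lies 288 kb from the Rps24 start, in intergenic DNA (chr14:24779134-24779334). It had 57.3, 60.1 and 53.4 normalized reads in fasted frozen and 84.8, 74.3 and 70.1 in fasted fresh libraries, against 143, 142 and 137 in fed frozen and 157, 178 and 140.0 in fed fresh libraries, with all fasted libraries below all fed ones and a difference of -1.15 ± 0.11 (adjusted p = 0.000166 by limma). A peak 363 kb from the Rps15a start and 85.8 kb from the gene Xylt1 (chr7:117753372-117753572) had 61.9, 52.3 and 35.6 normalized reads in fasted frozen and 109.9, 99.2 and 102 in fasted fresh libraries, against 112, 92.4 and 121 in fed frozen and 209, 189.9 and 223 in fed fresh libraries. It was lower in fasted livers by both preparations' values (-1.03 ± 0.12, adjusted p = 0.000356 by limma) and also lower in frozen liver (-1.0 ± 0.12, adjusted p = 1.48e-06 by limma), so that the 12 libraries overlapped by feeding state. Closer to a start, a peak 1.11 kb upstream of Rpl36 and 2.0 kb from the Lonp1 gene (chr17:56612180-56612380) was higher in fasted livers, with 178, 156 and 165 normalized reads in fasted frozen and 157, 125 and 127 in fasted fresh libraries, against 100.1, 92.4 and 92.0 in fed frozen and 95.8, 83.6 and 80.2 in fed fresh libraries. There all fasted libraries lay above all fed ones (0.73 ± 0.10, adjusted p = 0.000914 by limma).

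**Figure D5:**
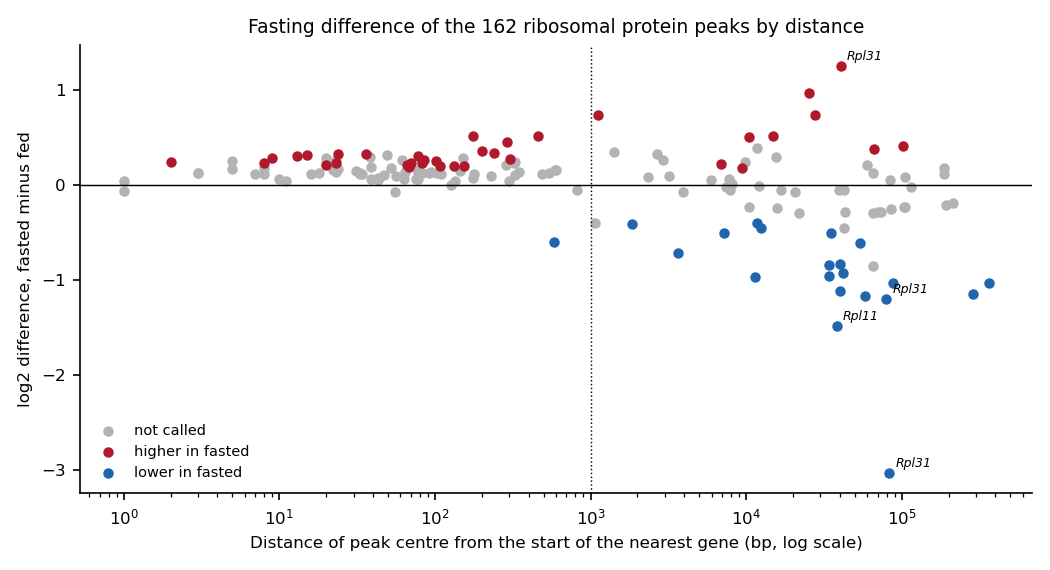
The log2 difference between fasted and fed mice (y axis) of all 162 ribosomal protein peaks is plotted by the distance of the peak centre from the start of its nearest gene (x axis, bp, log scale), with called peaks coloured and a dotted line at 1 kb. Left of the line the points form a flat band with 1 peak below -0.5, and right of it they reach from -3.03 to 1.25.

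Some ribosomal protein genes are not described by these rows. The RefSeq table lists 81 protein-coding mouse genes whose symbols fit the rule, of which 7 had no row: Rpl3l, Rpl4, Rpl7a, Rpl15, Rpl39l, Rps2 and Rps27. Rpl10l, Rpl32l, Rps18 and Rps28 had rows but no start peak. At 6 of these 11 genes a peak centre lay within 151 bases of the RefSeq start but was annotated to a neighbour, to Nkiras1 at Rpl15, Med22 at Rpl7a, Snhg9 at Rps2, Rab13 at Rps27, Vps52 at Rps18 and Ndufa7 at Rps28. Those peaks are not counted here. Ribosomal protein genes have many processed copies in the genome, and reads that match several places may have been placed in more than one way, since how the authors treated them is not given in the sources used here.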

How the data were processed

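ATAC-seq was measured in 12 libraries of hepatocyte nuclei held on beads, per the labels' protocols. The authors deposited 1 table of 52530 peaks of 200 bp, which holds, per the file headers, a peak score, the nearest gene with the distance to its start, the normalized signal of each library, and log2 fold changes with p-values and adjusted p-values of fasting in each preparation. The authors' peak score (a score per peak, used only to know the file) was not analysed here. The authors' deposited log2 fold changes and p-values were used only to count the peaks they called. Per the submitters' processing notes, the tools were HOMER, DESeq2, SAMtools and BWA (0.7.5a-r405), and the build was mm10. How replicates entered peak calling and how reads that match several places were treated is not given in the sources used here.

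The deposited signal of each library takes values that are multiples of 1 step. Depths are given as if that step were 1 read, which no source states, and no count test was run on them. All peaks entered limma (3.58.1, under R 4.3.3), with a prior that follows the mean and two-sided tests, as log2(signal + 1), without a filter, and p-values were adjusted over all 52530 peaks, with a threshold of 0.05. All 162 ribosomal protein peaks were therefore tested. The letters A to C of the columns do not match the mouse numbers in the labels. Within a feeding state, fresh and frozen libraries of the same letter deviated together (r = 0.329 to 0.640 over 6 pairs, at most 0.0213 for other letters, limit 0.1), so letters were taken as mice. P-values of the fasting comparisons measure the spread between these 3 mice per feeding state. Freezing and the interaction were fitted over all libraries without pairing those of a mouse. Their p-values therefore treat the fresh and frozen library of a mouse as independent. All per-sample columns were used.

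The members, lists, motifs and tests were chosen with earlier results of these data known. Named peaks are those nearest to a start with the 6 largest and 6 smallest fasting differences, or the 4 largest and 4 smallest in each preparation and for freezing, peaks called against the majority (up to 8), distal peaks called for fasting (up to 8, lowest p), a fixed set of genes, and up to 3 genes per list. A few genes are counted in the totals but not reported here by name. The search for the longer pyrimidine run was added after the promoters had been seen. Scripts were tested on simulated data. Alternatives were other pseudocounts (0.5 and 8), removal of the 25% of peaks of lowest mean, scaling to the median of start peaks, quantile normalization, other treatments of the letters, and leaving out each mouse.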

Additional observations from a re-analysis of the deposited data

How the results depend on the processing

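Counts are of ribosomal protein peaks called by limma. Apart from the interaction, the shares of all peaks called under these alternatives were not computed. Scaled to the start peak median, the fasting comparison called 2 start peaks and 5 distal peaks higher (median of start peaks 0.0185), fresh liver alone 3 higher and 1 lower (median -0.00463) and frozen liver alone 3 higher (median 0.0526). Under quantile normalization fresh liver had 10 higher, frozen liver 6 higher (median 0.109) and freezing 11 lower start peaks. Without the 25% of peaks of lowest mean, in which fewer peaks are tested, 0 start peaks and 12 distal peaks were lower in fasted livers, 0 start peaks were lower in frozen liver alone, and 10 distal peaks were lower in frozen than in fresh liver. The filter also removed some ribosomal protein peaks. Otherwise the cause was not tested. Pseudocounts of 0.5 and 8 left every count within 1.5-fold and every named call as it was.

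Leaving out 1 mouse at a time, the fasting comparison called 4 to 21 start peaks and 5 to 10 distal peaks higher and 13 to 21 distal peaks lower, fresh liver alone 3 to 10 higher, and frozen liver alone 3 to 16 higher and 0 to 1 lower. The uncalled log2 differences of Rpl10 (-0.0561 to 0.0807), Rpl18 (-0.00482 to 0.0931) and Rps27l (-0.231 to 0.0397) changed sign. Uncalled fasting differences also turned under scaling to the start peak median, to -0.127 at Rpl10, -0.0898 at Rpl18, -0.0845 at Rpl28, -0.0813 at Rpl41, -0.0710 at Rps6, -0.0654 at Rplp0, -0.0531 at Rps27a, -0.0125 at Rpl13a, -0.0122 at Rpl11 and -0.00701 at Rps3. Quantile normalization gave -0.0415 at Rpl10, -0.0193 at Rpl41, -0.0177 at Rpl28, -0.00764 at Rps6, -0.00755 at Rpl18, -0.00120 at Rplp0 and 0.00755 at Rps27l.

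With the letter as a replicate block, freezing gave 66 higher and 7 lower start peaks and 18 higher and 32 lower distal peaks, and the interaction 0 of 162 (395 of all 52530 peaks), with 22 at unadjusted p under 0.05 (13.6%, against 13.1% of all peaks). For fasting, 12 libraries with the letter as a random replicate block (correlation 0.330) gave 25 higher start peaks, and without pairing 37, with Rpl10 at -0.0642 and Rpl18 at -0.0352 in both fits. Rplp2 was called in both and Rpl39 lost its call under the random block. No other named call changed with the block. The planned count test was not run, since the deposited values are normalized and what 1 read is worth is not stated. If the step is 1 read, depth limits single start peaks to a counting error of 5.79% to 9.67% at the median.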
